A study of Mus musculus with 15 samples.

Results

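*Rgcc* (regulator of cell cycle, Entrez 66214) was described in RNA-seq libraries of mouse B cells cultured with or without GSK343, an inhibitor of EZH2. *Rgcc* is 1 of 21669 genes that the deposited table lists with a symbol, and it was found there by that symbol. Its level rose 8.40-fold from activated B cells to plasmablasts, and within plasmablasts it was 1.69-fold higher with GSK343 than with the vehicle. The libraries came from splenic B cells of female C57BL/6J wild-type mice, 6 to 9 weeks old per the study's methods. Naive B cells (nB) were isolated by depletion of CD43+ cells on magnetic columns. The other cells were the same preparation after 3 days of culture with LPS, IL2 and IL5, sorted as activated B cells (actB, B220+GL7+CD138-) or as CD138+ plasmablasts (Pb), with DMSO as the vehicle or with 2 μM GSK343. This gives 5 groups (nB, actB with DMSO, actB with GSK343, Pb with DMSO and Pb with GSK343) of 3 libraries each, with no transgene or deletion in any of them. For the Pb libraries with GSK343, the sample labels give IL6 in place of IL5, and if they hold, GSK343 and the cytokine cannot be told apart in Pb.

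RGC-32, the protein made from *Rgcc*, is also known as response gene to complement 32. It was first described as a transcript induced by complement attack, and it binds CDK1, the kinase that drives entry into mitosis, and raises its activity. TGF-beta signalling through SMAD3 induces it in several cell types, and AKT is among its partners. EZH2 is the catalytic subunit of the Polycomb complex that trimethylates lysine 27 of histone H3 (H3K27me3), a mark of repressed promoters, and plasmablasts are the dividing, antibody-secreting cells that activated B cells become.

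In mm9, *Rgcc* lies on the minus strand of chromosome 14, from 79688558 to 79701442, under the older name *1190002H23Rik* in the GENCODE vM1 annotation. The annotation gives it 5 exons with 913 bases in all, within 1 base of the deposited length of 914, and 0 annotated genes overlap it. The start codon lies in exon 1 after a 5′ UTR, and exon 5 holds the stop codon and the 3′ UTR. The study lists the *Rgcc* promoter among those that are open before the gene is induced and carry H3K27me3, so the 250 bases upstream of the start (chr14:79701443-79701692, mm9, minus strand) are shown here. They were taken from RefSeq (GRCm38.p6) and are the same in mm9. Capitals mark GGGCGG on either strand, the GC box, and TATAA.

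Rgcc promoter: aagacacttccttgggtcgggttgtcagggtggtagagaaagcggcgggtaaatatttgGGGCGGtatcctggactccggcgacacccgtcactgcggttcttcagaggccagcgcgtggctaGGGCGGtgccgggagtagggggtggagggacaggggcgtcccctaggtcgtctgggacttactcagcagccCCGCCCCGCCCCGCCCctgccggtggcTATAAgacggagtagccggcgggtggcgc

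GGGCGG was found 5 times, and its first bases lie at -191, -127, -56, -51 and -46 from the start, the last 3 matches sharing 1 base each with the next. The motif occurs in 32.9% of 27025 promoter windows of this length. TATAA occurs at -29, and 23.5% of the windows hold it. On both strands, no match was found for CCAAT (in 34.5% of the windows), for the E-box CACGTG (6.05%), for TTTGAA, a core of the element found in many promoters of mitotic genes (16.3%), or for the STAT motif TTCNNNGAA (7.18%). The window is rich in G and C, at 66.8% against a median of 52%, and holds 22 CpG against a median of 6. Of all windows, 86.2% had a lower GC content and 85.4% fewer CpG.

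Between 19421830 and 26307413 reads were counted per library, so that 3 reads, the limit that a count of 0 allows, equal 0.114 to 0.154 RPM (reads per 1000000 reads counted). Levels are given as RPKM, that is, RPM per kilobase of gene length. Replicates 1 and 2 of nB differed by less than the sampling noise (chi-square per degree of freedom 0.00958 over 14442 genes, against at least 3.58 for any other pair of replicates) and were counted as 1 sample, so n is 2 for nB and 3 for the other groups. The replicate 2 libraries of actB stood apart from replicates 1 and 3 of their groups (16.7 to 29.7, against 3.80 to 6.07 between replicates 1 and 3), and so did those of Pb, by less (7.64 to 11.4, against 3.58 to 3.68). The study describes the libraries as biological replicates, and the labels number them m1 to m3 without saying whether a number stands for a mouse. *Ezh2* itself was listed at 14.03 RPKM in nB, 101 and 120 in actB with DMSO and with GSK343, and 77.6 and 82.6 in Pb. Since GSK343 acts on the enzyme, the transcript does not check the inhibition.

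The nB libraries held transcripts of other cells, beside which the *Rgcc* level of nB stands. The summed level of 9 myeloid markers was 213 to 262 RPKM in nB, 10.1 to 12.0 in actB with DMSO, 13.99 to 19.8 in actB with GSK343, and 4.40 to 6.36 in Pb. Of these, *S100a8* and *S100a9* were at 0 in every cultured library. The sum of 8 T and NK cell markers was 24.6 to 26.98 RPKM in nB and at most 0.728 in cultured libraries, and that of 5 platelet markers 4.20 to 4.43 and at most 0.877. *Rgcc* is well known from endothelial cells, and the sum of 7 endothelial markers was 112 to 113 RPKM in nB, 30.7 to 50.3 in actB and 7.18 to 11.7 in Pb. Of it, *Pecam1*, which B cells express too, gave 110 to 112 RPKM in nB and 6.28 to 10.7 in Pb. *Tie1* was at 0 in all cultured libraries, and *Cdh5*, the cadherin of endothelial junctions, was at most at 0.374 RPKM in them. *Kdr*, a VEGF receptor, was at 0.156 and 0.234 RPKM in nB, at 1.87 and 0.496 in the replicate 2 libraries of actB with DMSO and with GSK343, and at most at 0.153 in the other cultured libraries. *Eng*, a TGF-beta co-receptor, was at 0.335 and 0.345 RPKM in nB, 0.888 to 2.26 in actB and 0.370 to 0.830 in Pb, and was the endothelial marker called higher from nB to actB with DMSO (1.33). In bulk libraries, a change in the number of cells that express a gene and a change in its RNA per cell cannot be told apart. The part of other cells in the nB level of *Rgcc* was not tested.

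*Rgcc* was low in nB and in actB and high in Pb, and the group means fell in the order actB with DMSO, nB, actB with GSK343, Pb with DMSO and Pb with GSK343. In nB the level was 4.04 and 4.11 RPKM, from 85 and 86 reads, which gives a mean of 4.07 ± 0.0518 (SD, n = 2). In actB with DMSO, replicates 1 to 3 held 4.81, 3.31 and 3.65 RPKM, from 104, 73 and 81 reads (3.92 ± 0.783, SD, n = 3). These values lie on both sides of those of nB. With GSK343, the actB libraries held 5.95, 5.59 and 4.93 RPKM, from 143, 126 and 106 reads (5.49 ± 0.515, SD, n = 3). The lowest of them lay just above the highest DMSO library of actB. The Pb libraries with DMSO held 33.5, 31.3 and 38.9 RPKM from 595, 585 and 740 reads (34.6 ± 3.92, SD, n = 3). The Pb libraries with GSK343 held 63.9, 56.7 and 55.0 RPKM from 1334, 1036 and 977 reads (58.5 ± 4.74, SD, n = 3), and no library of this group overlapped another group. *Rgcc* thus stood above 21.5% to 32.5% of the 11299 genes tested in the nB and actB libraries, above 79.7% to 83.2% in Pb with DMSO, and above 88.5% to 90.1% in Pb with GSK343.

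**Figure D1:**
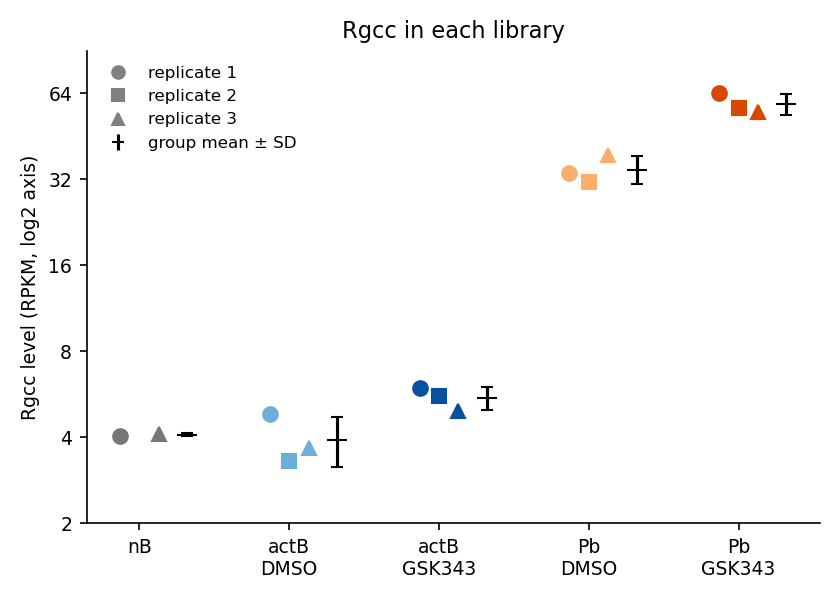
Level of *Rgcc* in RPKM on a log2 axis in each of the 14 libraries, by group, with symbols for the replicate numbers and the group mean ± SD in black. The 8 nB and actB libraries lie between 3.31 and 5.95 RPKM, and the 6 Pb libraries lie between 31.3 and 63.9 RPKM.

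From nB to actB a change of *Rgcc* was not detected. On the scale of log2(RPKM + 0.25), which all fold changes here use, actB with DMSO against nB gave a log2 fold change of -0.07 (SE 0.14, 95% interval -0.37 to 0.23, limma adjusted p = 0.666). Among all genes tested, 40.9% were called higher and 36.3% lower in this comparison at an adjusted p under 0.05. Without replicate 2 of actB with DMSO, the log2 fold change was 0.039. ActB with GSK343 against nB gave 0.41 (SE 0.14, limma adjusted p = 0.0173), where 42.4% of the genes were called higher and 33.9% lower. That call was lost in 8 of 17 other settings, among them edgeR, DESeq2, median scaling and the fits without either nB library or without replicate 1 of actB with GSK343, with log2 fold changes of 0.29 to 0.42.

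From actB to Pb, *Rgcc* rose by 3.07 in log2 with DMSO (SE 0.12, 95% interval 2.80 to 3.34, limma adjusted p = 5.52e-10). With GSK343 it rose by 3.36, or 10.2-fold (SE 0.12, limma adjusted p = 2.33e-10). Paired by replicate number, the differences were 2.74, 3.15 and 3.33 with DMSO and 3.37, 3.28 and 3.42 with GSK343. In Pb against actB, 27.3% of the genes were called higher and 42.4% lower with DMSO, and 26.4% and 44.2% with GSK343. With the libraries centred on their medians, these counts were nearly even, at 3813 higher and 3899 lower with DMSO and 3832 and 3871 with GSK343. The median gene lay at -0.12 with DMSO and -0.14 with GSK343, far from the rise of *Rgcc*, which was the 32nd largest of 11299 with DMSO and the 15th largest with GSK343. Genes of low level take many of the first places: among the 3407 genes whose mean over all libraries was at least the 22.6 RPKM of *Rgcc*, its rise with DMSO was the 7th largest. The Pb libraries carried *Rgcc* to this mean (34.6 and 58.5 RPKM, against 3.92 and 5.49 in actB). This rank therefore lends no support to the rise. Since CD138+ cells are sorted by *Sdc1* protein, the groups differ by the gate as well as by state.

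With GSK343, *Rgcc* was higher in both cell types. The study showed *Rgcc* as an example from these same libraries, so the values describe a gene that was picked on them. In Pb the log2 fold change was 0.76 (SE 0.12, 95% interval 0.49 to 1.03, limma adjusted p = 0.00235), and 7.9% of the genes were called higher and 5% lower. Paired by replicate number, the differences were 0.93, 0.85 and 0.50. In actB the log2 fold change was 0.47, or 1.39-fold (SE 0.12, 95% interval 0.20 to 0.74, limma adjusted p = 0.0305), with 8.2% of the genes called higher and 2.16% lower. Here the paired differences were 0.29, 0.71 and 0.41, so that replicate 2 gave the largest difference. The call in actB was lost in 9 of 19 other settings (adjusted p of 0.00799 to 0.149 over the 19). The adjusted p was 0.0510 from edgeR with TMM scaling and 0.149 from limma on the actB libraries alone. From limma without replicate 2 of every cultured group it was 0.116. The call was kept by edgeR with RLE scaling (adjusted p = 0.0494) and by DESeq2 (adjusted p = 0.0337). Of the 8 tested myeloid markers, *Itgam* (1.14) and *Adgre1* (0.79) were higher with GSK343 in actB and 0 were called in Pb by limma, edgeR or DESeq2 (1 lower at an unadjusted p under 0.05), and their part in the result was not tested. The call for *Rgcc* in actB was also lost without replicate 2 (log2 fold change 0.37) or 3 (0.43) of actB with DMSO and without replicate 1 (0.41) or 2 (0.46) of actB with GSK343.

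The effect of GSK343 in Pb minus that in actB was 0.29 for *Rgcc* (SE 0.17, 95% interval -0.09 to 0.67, limma adjusted p = 0.739), so a difference between the cell types was not detected. In this comparison 0.0974% of the genes were called higher and 0.15% lower, and 1017 had an unadjusted p under 0.05. With the replicate number as a block, more genes were called: 1663 higher and 705 lower in actB against 926 and 244 without it, 1535 and 1205 in Pb against 893 and 565, and 29 and 54 in the difference against 11 and 17. *Rgcc* was called in actB (limma adjusted p = 0.0177) and in Pb (0.00198) with the block. Median scaling moved the split of the calls to 690 higher and 370 lower in actB and to 21 and 12 in the difference.

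Ordered by log2 fold change with GSK343, *Rgcc* was the 157th of 11299 genes in Pb, above 98.6% of them, and the 529th in actB, above 95.3%. Of the genes called higher, it was the 136th of 893 in Pb and the 367th of 926 in actB. Its neighbours in the order in Pb were *Ctnna1* (alpha-catenin, 0.76) and *Ppm1e* (a protein phosphatase, 0.76) above it, and *Serpine2* (a protease inhibitor, 0.76) and *Myb* (a transcription factor, 0.76) below it. In actB, they were *Pip4k2a* (a lipid kinase, 0.47) and *Ctdsp2* (a phosphatase, 0.47) above, and *Strip2* and *Cntnap1* (0.47 each, not called) below. Among the 3407 genes at least as high as *Rgcc* over all libraries, it was the 9th in Pb and the 35th in actB. *Rgcc* meets this cutoff, its own mean of 22.6 RPKM, through its Pb libraries and lies at 3.92 and 5.49 RPKM in actB. These ranks therefore lend no support to its change. In single pairs of libraries with the same number, its rank in Pb was 161, 147 and 499, and in actB 1536, 222 and 877. The rank in Pb lay between 73 and 321 over 11 other settings (321 with edgeR), and the rank in actB between 256, without replicate 1 of actB with DMSO, and 1118, without replicate 2 of that group.

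**Figure D2:**
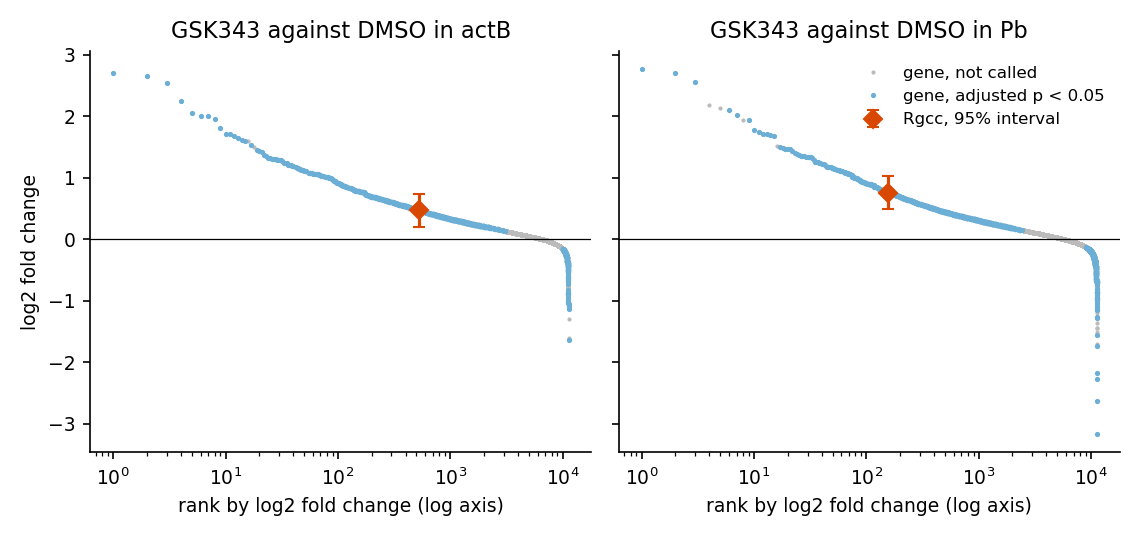
Log2 fold change of GSK343 against DMSO for each of the 11299 genes tested, against its rank (log axis), in actB (left) and Pb (right). Blue points are genes with an adjusted p under 0.05, and the orange diamond with its 95% interval is *Rgcc*, at rank 529 with 0.47 in actB and rank 157 with 0.76 in Pb.

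The transcripts of CDK1 and its partners rose from nB to actB, where *Rgcc* was not called. All 12 tested genes of a list of CDK1, its cyclins and the enzymes that switch it on or off rose from nB to actB with DMSO, by a median of 3.92 in log2. In this comparison 40.9% of all genes rose, and the median of all genes was 0.05. *Cdk1* rose from 1.76 to 43.7 RPKM, *Ccnb1*, its mitotic cyclin, from 2.29 to 80.1, and *Cdc25c*, a phosphatase that activates it, from 0.474 to 16.1. From actB to Pb with DMSO, 5 of the 12 rose (41.7%, against 27.3% of all genes) and 1 fell (8.33%, against 42.4%). The median was near 0 (-0.0004), and the largest of these changes was 0.42 for *Cdc25b*. *Cdk1* itself rose by 0.35 (limma adjusted p = 0.0296), from 43.7 to 55.6 RPKM, while *Ccnb2* fell by 0.34. With median scaling, 5 rose and 0 fell, where 3813 of the 11299 genes rose and 3899 fell. With GSK343, 0 of the 12 were called by limma in actB or in Pb, and 0 by edgeR, by DESeq2 or at an unadjusted p under 0.05. Of all genes, limma called 8.2% higher and 2.16% lower in actB, and 7.9% and 5% in Pb. With the replicate block, *Ccnb2* (0.13) and *Cdc25c* (0.21) were called in actB and 0 genes in Pb. Of the 11299 genes, the block called 1663 higher and 705 lower in actB, and 1535 and 1205 in Pb.

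Of 20 genes of G2 and mitosis, such as *Mki67*, *Top2a* and *Aurka*, 20 rose from nB to actB, where 40.9% of all genes did, by a median of 4.27. From actB to Pb with DMSO 4 rose (20%, against 27.3% of all genes) and 5 fell (25%, against 42.4%), with a median of -0.01. *Mki67*, a marker of dividing cells, rose by 0.63, and *Bub1*, a mitotic checkpoint kinase, fell by 0.51. With median scaling, 5 rose and 3 fell, where 3813 of the 11299 genes rose and 3899 fell. With GSK343, limma, edgeR and DESeq2 called 0 of these 20 in either cell type. Of all genes, limma called 8.2% higher and 2.16% lower in actB, and 7.9% and 5% in Pb. At an unadjusted p under 0.05 limma gave 0 in actB and 1 lower in Pb, and with the block it called 2 higher in actB and 2 lower in Pb. Of the 11299 genes, the block called 1663 higher in actB and 1205 lower in Pb. Of 20 genes of G1 and DNA replication, 19 rose and 1 fell from nB to actB (median 2.07). These are 95% and 5%, against 40.9% and 36.3% of all genes. From actB to Pb with DMSO 3 of the 20 rose (15%, against 27.3% of all genes) and 9 fell (45%, near the 42.4% of all genes). *Mcm3*, a subunit of the replicative helicase, fell by 0.60. With median scaling 7 rose and 7 fell, beside the same 3813 and 3899 of all genes. GSK343 raised 3 of these genes in actB (15%, against 8.2% of all genes), the cyclins *Ccnd2* (0.22) and *Ccnd3* (0.30) and the transcription factor *E2f1* (0.22). In Pb it raised 0 (against 7.9% of all genes), edgeR and DESeq2 also called 0, and 0 had an unadjusted p under 0.05. With the block, the calls were 6 in actB and 2 in Pb, and with median scaling or edgeR 1 in actB. Of all 11299 genes, the block called 1663 higher in actB and 1535 in Pb. Median scaling called 690 of 11299 higher in actB, and edgeR 816 of 11146.

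Genes that hold back the cell cycle were counted in the same way. From nB to actB, 7 of 17 tested inhibitors rose (41.2%, near the 40.9% of all genes) and 9 fell (52.9%, against 36.3%). From actB to Pb with DMSO 9 rose (52.9%, against 27.3% of all genes) and 2 fell (11.8%, against 42.4%), with a median of 0.40. The largest rises to Pb were those of *Cdkn2b* (1.61), an inhibitor of CDK4 and CDK6, and *Gadd45b* (1.51), a stress sensor, and all were below that of *Rgcc*. *Btg1*, an antiproliferative gene, fell by 2.24. With GSK343 in Pb, *Cdkn1a* (p21, 0.77, from 14.99 to 25.7 RPKM), *Gadd45g* (1.09) and *Btg2* (0.33) rose and *Cdkn1b* (p27, -0.59) and *Rb1* (-0.18) fell. In actB, *Gadd45g* (1.05), *Cdkn2d* (0.55) and *Cdkn2c* (0.39) rose and *Cdkn2b* (-0.43), *Cdkn1b* (-0.37) and *Ccng1* (-0.25) fell. The shares that rose and fell were 17.6% and 11.8% in Pb, against 7.9% and 5% of all genes. In actB they were 17.6% each, against 8.2% and 2.16%. *Gadd45g* and *Cdkn1a* were the 2 inhibitors whose log2 fold change in Pb was larger than that of *Rgcc*.

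The plasmablast genes rose with *Rgcc* from actB to Pb. All 15 tested members of a list of plasmablast markers were called higher with DMSO, against 27.3% of all genes. Their median was 2.20 against -0.12 for all genes. The rise was larger than that of *Rgcc* for 4 of them: *Tnfrsf17*, the receptor BCMA (5.55), *Sdc1*, which encodes the CD138 of the sort (5.04), *Fkbp11*, a prolyl isomerase of the endoplasmic reticulum (3.95), and *Jchain*, the J chain of secreted IgM (3.24). *Prdm1*, which encodes Blimp-1, rose by 1.94 and *Xbp1*, a regulator of secretion, by 2.33. From nB to actB with DMSO, where *Rgcc* was not called, 12 of the 15 rose (80%, against 40.9% of all genes). Only *Sdc1* fell, from 5.17 to 0.665 RPKM (6.67% of the list, against 36.3% of all genes). With GSK343 in Pb, *Sdc1* (0.89, from 29.7 to 55.3 RPKM) and *Txndc5* (0.18) rose and *Irf4*, a plasma cell transcription factor, fell by 0.25, and the other 12 were not called. The change of *Sdc1* was the only one in the list above that of *Rgcc*. In actB, 5 of the 15 rose (33.3%, against 8.2% of all genes), among them *Sdc1* (0.41, from 0.665 to 0.965 RPKM) and *Jchain* (0.37). The count became 9 with the block and 2 without replicate 2 or with median scaling. These settings called 1663, 1179 and 690 of the 11299 genes higher in actB. In Pb the shares that rose and fell were 13.3% and 6.67%, against 7.9% and 5% of all genes.

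B cell genes went the other way. From actB to Pb with DMSO, 16 of 16 fell (median -1.81), against 42.4% of all genes. *Pax5*, the factor that keeps B cell identity, fell from 192 to 29.1 RPKM and *Ciita*, the activator of MHC class II, from 24.2 to 1.90. From nB to actB with DMSO, where *Rgcc* was not called, 15 of the 16 had already fallen. This is 93.8%, against 36.3% of all genes, with a median of -1.07. With GSK343 in Pb, 5 of the 16 were lower (31.2%, against 5% of all genes): *Fcer2a* (-1.56), *Pax5* (-1.11), *Cr2* (-0.67), *Ms4a1* (-0.63) and *Ebf1* (-0.60). *Bcl6* was higher by 0.71. In actB, *Fcer2a* was lower (-0.91) and *Bcl6* higher (0.41), or 6.25% each, against 2.16% and 8.2% of all genes. With the block and without replicate 2, 9 of the 16 were lower in Pb. These settings called 1205 and 850 of the 11299 genes lower in Pb.

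Library by library, *Rgcc* was set against list scores, that is, the mean log2(RPKM + 0.25) of the list's tested genes. The plasmablast score was 4.11 to 4.13 in nB, 5.33 to 5.41 in actB with DMSO, 5.52 to 5.62 in actB with GSK343, 8.01 to 8.10 in Pb with DMSO and 8.15 to 8.19 in Pb with GSK343. From nB to actB with DMSO it thus went up by over 1 in log2, where a change of *Rgcc* was not detected. The G2 and mitosis score was 1.44 to 1.58 in nB and 5.54 to 5.93 in all cultured libraries. At like scores on this list, *Rgcc* in log2 was 1.83 to 2.63 in actB and 4.98 to 6.00 in Pb. The libraries of the 5 groups form separate clusters, so no correlation over all of them is given.

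**Figure D3:**
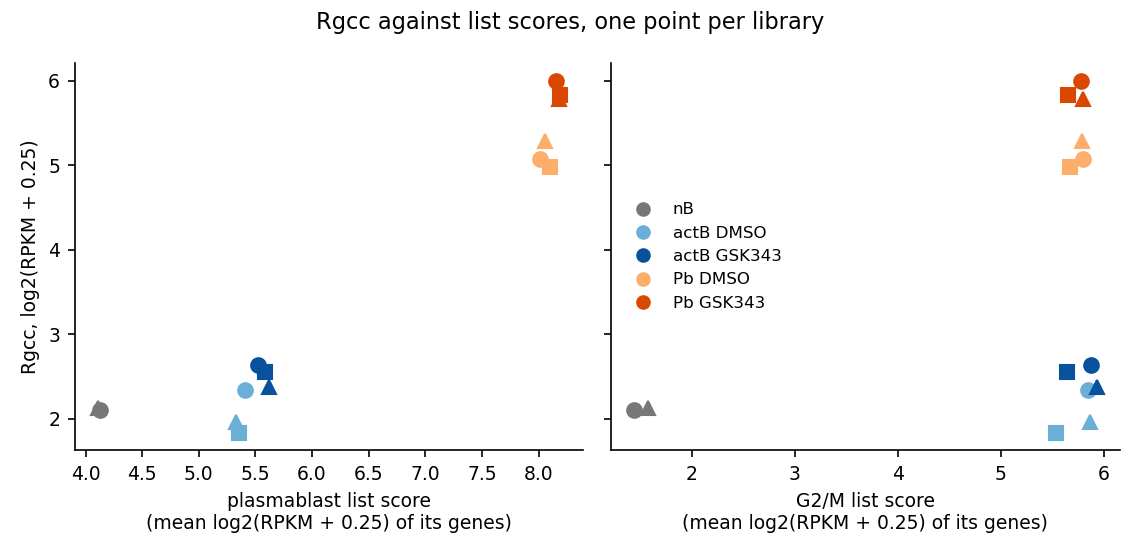
Level of *Rgcc*, as log2(RPKM + 0.25), against the plasmablast score (left) and the G2 and mitosis score (right), with 1 point per library, colours for the groups, and circles, squares and triangles for replicates 1, 2 and 3. On the right, the scores of the Pb libraries, 5.65 to 5.801, lie within the range of the actB libraries, 5.54 to 5.93, and the levels of *Rgcc* do not overlap.

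Within groups, the deviations of *Rgcc* from the group mean were compared with those of 4 scores over the 12 cultured libraries. Two-sided p-values come from all 1296 permutations of the libraries within groups, adjusted over the 4 relations. For the plasmablast score Pearson's r was -0.03 (permutation p = 0.947, adjusted 0.947) and Spearman's rho -0.10 (permutation p = 0.798, adjusted 0.798), with r at 0.12 without the 2 libraries farthest from the median. For the B cell score r was -0.46 (permutation p = 0.138, adjusted 0.434), rho -0.41 (0.263, adjusted 0.526) and r without the 2 farthest -0.47. For the G1 and replication score r was 0.49 (permutation p = 0.217, adjusted 0.434), rho 0.54 (0.166, adjusted 0.526) and r without the 2 farthest, the replicate 2 libraries of actB, 0.64. For the G2 and mitosis score r was 0.37 (permutation p = 0.447, adjusted 0.596), rho 0.14 (0.755, adjusted 0.798) and r without the same 2 libraries 0.13. None of the 4 relations passed the test. Libraries with the same number tended to deviate together. The permutations shuffle each group on its own, so their p-values do not allow for this. With the replicate number removed as well, r was 0.32, -0.11, 0.09 and -0.01 in the same order.

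Genes of the pathways that *Rgcc* is known from were examined as well. Of 10 tested TGF-beta and SMAD genes, 3 rose with GSK343 in actB (30%, against 8.2% of all genes): *Ski* (0.63), a co-repressor of SMADs, *Tgfbr1* (0.57), a receptor, and *Smad3* (0.36). In Pb 0 of them were called by limma, edgeR or DESeq2, and 1 had an unadjusted p under 0.05, while 1 was called with the block and 1 without replicate 2. Of all genes in Pb, limma called 7.9% higher and 5% lower, and with the block 1535 and 1205 of 11299. *Tgfb3*, a ligand, was the member with a larger log2 fold change in Pb than *Rgcc* (0.93, limma adjusted p = 0.112). It was at 0.896, 1.70 and 1.16 RPKM in Pb with DMSO and at 2.55, 2.61 and 2.46 with GSK343, and it was not called. In actB its log2 fold change was 0.83 (limma adjusted p = 0.161). *Smad3* rose from actB to Pb with DMSO by 1.38, from 7.45 to 19.7 RPKM, and *Tgfbr2*, the other receptor chain, fell by 1.78. Over the list 4 rose and 4 fell (40% each, against 27.3% and 42.4% of all genes). Of 13 genes of the AKT pathway, *Akt2* (0.24) and *Pik3r1* (0.26) rose in actB (15.4%, against 8.2% of all genes). With the block, 5 of the 13 rose there, and 1663 of the 11299 genes. In Pb, *Pik3r1* rose by 0.32 and *Pik3cd* fell by 0.41, where 7.9% of all genes were called higher and 5% lower. Between actB and Pb 4 of them rose and 4 fell (30.8% each, against 27.3% and 42.4% of all genes). Of 6 tested complement receptors and regulators, 0 were called by limma in actB, against 8.2% of all genes higher and 2.16% lower. In actB, 1 was lower by edgeR, by DESeq2 and at an unadjusted p under 0.05. *Cr2* (-0.67), the receptor CD21, fell in Pb (16.7%, against 5% of all genes). *Cd55*, which restrains complement on the cell surface, fell from 214 RPKM in nB to 14.4 in actB with DMSO and 8.54 in Pb. No member of the complement list had a larger log2 fold change with GSK343 than *Rgcc* in either cell type.

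Over the 14 libraries, the genes most like *Rgcc* by Pearson's r of log2 levels, of 10524 with a mean of at least 2 RPKM in some group, were *Bpgm* (0.996), *Phlda1*, *Dap*, *Kcnmb4*, *Farp2*, *Erp29*, *Ubl5*, *Il6st*, *Ftl1* and *Btd* (0.991). The values are a description: the libraries fall into groups, and 869 genes had an r over 0.9. *Bpgm*, an enzyme of red cell glycolysis, went from 6.54 RPKM in actB with DMSO to 20.7 in Pb with DMSO and 26.0 with GSK343. *Il6st*, the signalling chain of the IL6 receptor, was at 7.29 and 9.16 RPKM in actB with DMSO and with GSK343 and at 27.8 and 36.1 in Pb. *Ftl1*, the ferritin light chain, went from 390 RPKM in actB with DMSO to 1111 in Pb with DMSO and 1472 with GSK343. Of these 10, *Dap*, *Il6st* and *Btd* were called higher with GSK343 in both cell types, as *Rgcc* was. The GSK343 libraries entered the choice of the 10, so these shared calls are no independent result. The lowest values of r were those of *Zfp26* (-0.995), *Swap70* (-0.994), which acts in B cell signalling, and *Kynu* (-0.991). *Swap70* went from 145 RPKM in actB with DMSO to 55.3 in Pb with DMSO and 39.6 with GSK343.

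By the group means in log2, each centred on its mean, the nearest gene was *Farp2*, an exchange factor for small GTPases, with a root mean square difference of 0.0877. Its levels were lower than those of *Rgcc*, at 0.633 RPKM in nB, 0.655 and 0.914 in actB, and 7.92 and 11.4 in Pb. *Cd28*, a costimulatory receptor that plasma cells carry (0.156), *Creg2* (0.180), *Txndc5*, a disulphide isomerase of the endoplasmic reticulum (0.304), and *Gpx3*, a secreted glutathione peroxidase (0.305), came next. Among these 5, *Gpx3* and *Txndc5* were called higher with GSK343 in both cell types, and *Farp2* in Pb (0.51, limma adjusted p = 0.0167) but not in actB (0.37, limma adjusted p = 0.0741). The means of the GSK343 groups entered the choice of the 5, so these calls are no independent result either.

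**Figure D4:**
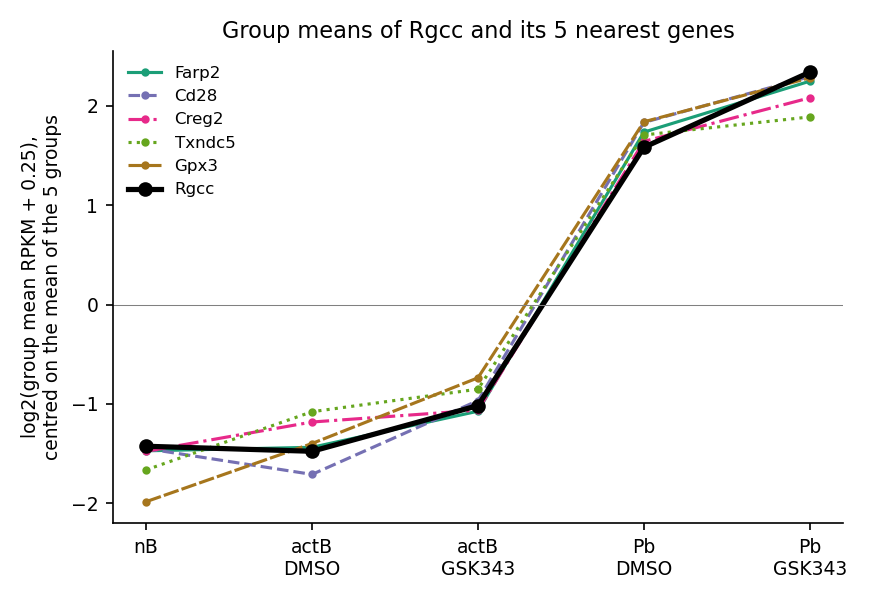
Group means of *Rgcc* (black) and of the 5 genes with the nearest profile, as log2(mean RPKM + 0.25) centred on the mean of the 5 groups for each gene, against group. All 6 lines lie low in nB and actB and high in Pb, and *Farp2* lies closest to *Rgcc* with a root mean square difference of 0.0877.

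On chromosome 14, the 3 nearest protein-coding genes on each side of *Rgcc* were also examined. *Vwa8*, 86441 bases away on the side of lower coordinates, was at 5.04 and 6.30 RPKM in actB with DMSO and with GSK343 and at 5.15 and 7.41 in Pb. It was higher with GSK343 in actB by 0.31 (limma adjusted p = 0.00655) and in Pb by 0.50 (limma adjusted p = 0.000323), and was not called from actB to Pb with DMSO (0.03, limma adjusted p = 0.663). *Dgkh*, a diacylglycerol kinase 563662 bases away on the same side, was low, at 0.629 to 1.44 RPKM over the groups, and was higher by 0.55 in actB and by 0.42 in Pb. *Zfp957*, between *Vwa8* and *Rgcc*, was at 0.0474 RPKM or less in every group mean and was not tested. On the other side, *Naa16* (32569 bases away), *Mtrf1* (96137) and *Kbtbd7* (124758) had log2 fold changes of -0.12, -0.13 and -0.17 in actB and -0.22, -0.04 and -0.09 in Pb, and none was called. None of the 5 tested neighbours rose from actB to Pb with DMSO by more than the 0.35 of *Dgkh*. Of all genes, 8.2% were called higher with GSK343 in actB and 7.9% in Pb. An effect shared along the chromosome was not tested.

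**Figure D5:**
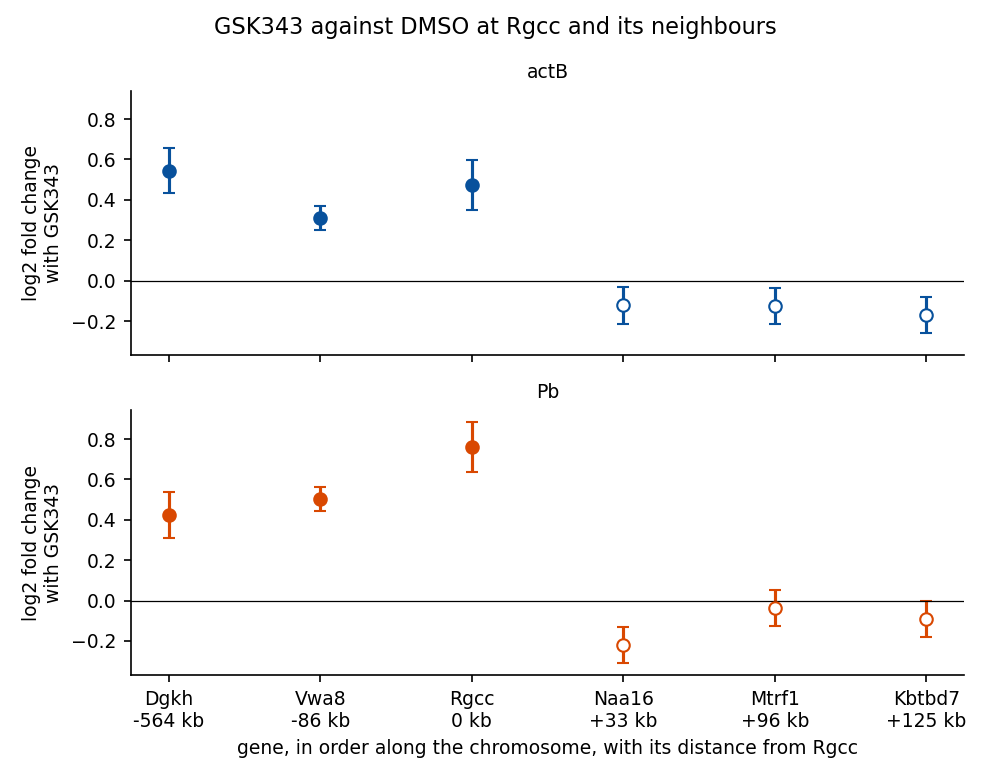
Log2 fold change ± SE of GSK343 against DMSO in actB (top) and Pb (bottom) for *Rgcc* and its tested neighbours, in their order along the chromosome and labelled with the distance from *Rgcc*. Filled points have an adjusted p under 0.05: *Dgkh*, *Vwa8* and *Rgcc* in both cell types, and none of the 3 genes on the other side.

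Among the genes that the study lists as primed (open at the promoter before they are induced), 102 with H3K27me3 at the promoter and 650 without were tested here. The list was drawn up from other libraries, for genes induced with cell division, so a rise to Pb is part of how it was made. *Rgcc* had the 3rd largest log2 fold change with GSK343 in Pb of the 102 marked genes, after *Kif5c* (1.13), a motor protein, and *Atp1b1* (1.01), a subunit of the sodium pump. In actB it was the 8th. Of the marked genes, 10 rose and 1 fell in Pb and 10 rose and 3 fell in actB, and of those not marked 58 rose and 12 fell in Pb and 45 rose and 15 fell in actB. The shares that rose, 9.8% and 8.92% in Pb and 9.8% and 6.92% in actB, lie near the 7.9% and 8.2% of all genes. The shares that fell were 0.98% and 1.85% in Pb, against 5% of all genes, and 2.94% and 2.31% in actB, against 2.16%. The study used another measure, the mean log2 fold change, and reported a larger increase for marked than for unmarked primed genes in both cell types. Here the median log2 fold change of marked and unmarked genes was 0.067 and 0.036 in Pb. In actB the medians were 0.015 and 0.031. The differences between marked and unmarked genes were not tested. *Atp1b1* was at 10.8 and 24.9 RPKM in actB with DMSO and with GSK343 and at 58.8 and 119 in Pb. From nB to actB, 87 of the 102 marked genes rose (85.3%, against 86.8% of those not marked and 40.9% of all genes), with a median of 1.002, and *Rgcc* was the 96th in that order.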

How the data were processed

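RNA-seq of poly(A) RNA (KAPA stranded kit) was analysed. The authors mapped reads to mm9 with TopHat2, used GenomicRanges to count reads over the exons of Entrez genes, and deposited them as RPM per library. Strand use in counting is not given in the sources used here. RPM values were whole multiples of 1 read for at least 99.95% of values (tolerance 0.05 reads), so reads were recovered, and RPKM was computed as RPM per kilobase of the deposited length. Libraries held 19421830 to 26307413 reads, and limits for a count of 0 cover counting error only. Genes with no symbol (92, at most 0.0905% of reads) were left out.

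The 11299 genes with RPKM of at least 1 in at least 3 columns were fitted over 14 libraries with limma 3.58.1 in R 4.3.3 (group means, eBayes with trend) on log2(RPKM + 0.25). P-values are two-sided and adjusted by Benjamini-Hochberg over these genes, and called means an adjusted p under 0.05. The labels do not say whether the numbers pair the samples. Deviations from group means correlated at 0.158 to 0.713 over 18 same-number pairs, and at -0.603 to 0.37 over 36 others, so the ranges overlap. The highest values were those of number 2 (0.435 to 0.713). The main fit does not use the numbers, and the fit with the replicate block does. *Rgcc*, the lists and the tests were chosen with earlier results of these data known. Genes were named as the nearest to *Rgcc* by likeness, rank or position, as members of the lists (the largest changes), and as *Ezh2* and *Atp1b1*. Alternatives were other pseudocounts (1 and 0.05) and filters, scalings, the compared groups alone, a replicate block, edgeR 4.0.16 and DESeq2 1.42.0 on the recovered reads, all 15 columns, and each library left out. The ranks among higher genes and the fit without replicate 2 were added after the data were seen. The scripts were tested on simulated data. The result of 1 gene of the AKT list is not reported here.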

Additional observations from a re-analysis of the deposited data

How the results depend on the processing

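The rise of *Rgcc* with GSK343 in Pb (0.69 to 0.85) and both rises from actB to Pb kept their direction and their call in each of 19 other settings, and the difference of the effects of GSK343 was not called in any of 25. In actB, the call for GSK343 was lost without a filter on expression (0.47, adjusted p = 0.0528), with quantile normalization (0.39), with the compared groups alone (0.47), with edgeR and TMM (0.45), and in 4 of 6 fits that left out 1 library (0.37 to 0.62 over the 6), and without replicate 2 of every cultured group (0.35). ActB with GSK343 against nB lost its call with median scaling (0.30), quantile normalization (0.29), edgeR with TMM (0.35) or RLE (0.31), DESeq2 (0.31), and in 3 of 5 fits without 1 library (0.35 to 0.48). ActB with DMSO against nB, not called, changed sign without actB replicate 2 (0.039, also without replicate 2 of every cultured group) and lay between -0.21 and 0.039 over the 5 fits. The uncalled r with the plasmablast score changed sign with a pseudocount of 0.05 (0.12) and in 4 of 12 fits without 1 library (0.05, 0.16, 0.17 and 0.17, within a range of -0.64 to 0.17). With the replicate block it was 0.32, and the r with the G2 and mitosis score was -0.013. The block otherwise changed no call for *Rgcc*. Leave-one-out r was -0.56 to -0.34 for the B cell score, 0.28 to 0.75 for G1 and 0.01 to 0.59 for G2. The causes were not tested.

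Counts of calls over 1.5 times from the main ones in actB were 339 higher and 47 lower with the compared groups alone, and 606 and 378 with quantile normalization. With the replicate block they were 1663 and 705. The count of lower genes was 370 with median scaling and 425, 424 and 592 with edgeR (TMM, RLE) and DESeq2. Without replicate 2 of every cultured group it was 561. Without 1 library, the counts in actB were 504 to 1025 higher and 104 to 341 lower, falling to 504 and 104 without DMSO replicate 1, 521 and 125 without DMSO replicate 3, 597 and 111 without GSK343 replicate 1, and 523 and 104 without GSK343 replicate 3. In Pb they were 472 to 785 and 218 to 519, lowest without GSK343 replicate 3, and in the difference 0 to 19 and 0 to 40. In actB, *Rgcc* rests on 73 to 143 reads a library.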
